A study of Papilio xuthus with 10 samples.

Results

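Metamorphosis of the swallowtail butterfly *Papilio xuthus* was examined by setting 4 libraries of later larvae (2nd, 3rd, 4th and 5th instar, an instar being the period between moults) against 4 libraries of later stages (a female and a male pupa, and a female and a male adult). These are 8 of the 10 libraries of a developmental series measured by RNA sequencing of whole bodies, and the egg and the 1st instar were left out of the comparison. A gene was taken as separated when its lowest value on 1 side lay above its highest value on the other. The genes described below were separated in the table as deposited and again after the libraries were brought to the same upper quartile, and they numbered 741 higher and 1338 lower in later larvae, out of 15123 genes. No treatment or strain is given for any library, the sex of the larvae is not given, and the study's animals were bought from insectaries or reared from collected larvae, with a rutaceous plant as larval food. The 2nd instar library pooled several larvae and the remaining 7 came from 1 animal each, so each stage and sex had 1 library and no replicate check.

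Butterflies develop through feeding larvae, a pupa that does not feed and an adult that flies, takes nectar and reproduces. The larva grows by repeated moults, in which the old cuticle is shed, and its gut digests leaves and deals with plant toxins. In the pupa many larval tissues are broken down, and wings, compound eyes, flight muscle and reproductive organs are built, under the control of ecdysone and juvenile hormone. Larval genes therefore often belong to digestion, detoxification, storage and larval cuticle, and genes of later stages to sense organs, muscle and gametes. The deposited table gives identifiers without names, and a search of RefSeq's table for assembly Pxut_1.1, which lists 13139 genes, matched 0 of the 15123. No gene is therefore assigned a function below, no pathway list or stage marker was used, at most 2 identifiers per direction are printed for a rule, and no sequences are shown.

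Values are RPKM, the reads of a gene scaled by its length and by the total reads of its library. Library totals, read back from the values, ranged from 23378656 to 29409552 reads in later larvae and from 31244864 to 35161755 in pupae and adults. Reads summed over genes were 124 to 154% of the library total in later larvae and 76.5 to 98.6% in pupae and adults, so this sum exceeded the total in the 4 later larvae only. Fewer genes reached an RPKM of 1 in later larvae, 10632 ± 308 against 11726 ± 587 in pupae and adults (SD, n = 4 libraries each). Their upper quartile of RPKM was also lower, at 16.8 ± 1.10 against 26.8 ± 3.41. Their 10 most abundant genes held 41.6 ± 6.51% of summed RPKM, against 16.7 ± 8.95% in pupae and adults. In each of these 4 measures the sides did not overlap, which gives p = 0.0286 in an exact two-sided permutation test (0.0286 after Benjamini-Hochberg adjustment over the 4), the smallest that 4 against 4 libraries allow. The 1st instar, also a larva but left out of the comparison, lay within the range of pupae and adults in all 4 measures. It had 92.4% of its total at genes, 11870 genes at an RPKM of 1, an upper quartile of 24.4 and 19.5% in its 10 most abundant genes. Successive instars, and the sexes of a stage, are not independent draws of a stage class, and the spread here is that among stages.

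The first question was how many genes set feeding larvae apart from pupae and adults. As deposited, 741 genes (4.90%) were higher in each later larva than in each pupa or adult, and 3339 (22.1%) were lower. With equal upper quartiles, the numbers were 1287 higher (8.51%) and 1338 lower (8.85%). The balance of the directions thus turned on the scaling between libraries. With the same median of ratios 1386 genes (9.16%) were higher and 1270 (8.40%) lower. With the same sum of RPKM 459 (3.04%) were higher and 6639 (43.9%) lower. Scaling to the same reads at genes gave 533 (3.52%) and 5446 (36.0%). The median difference of all 14306 genes that reached an RPKM of 1 in some library, later larvae minus pupae and adults in log2(RPKM + 1), was -0.74 as deposited. It became -0.19 with equal upper quartiles and -1.47 with equal sums. The part that the larval reads in excess of the library total had in these counts was not tested. In whole bodies, fewer cells of a type and less RNA per cell cannot be told apart.

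**Figure D1:**
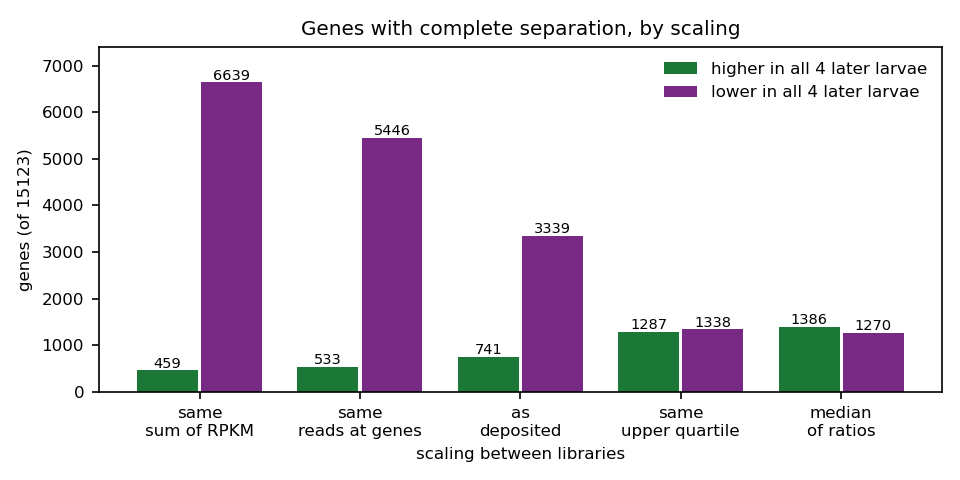
Number of genes (vertical axis, of 15123) whose 4 later larval values all lay above (left bars) or all below (right bars) the 4 values of pupae and adults, under 5 scalings between libraries. Lower genes outnumber higher genes as deposited, 3339 against 741, and the numbers are 1338 and 1287 at the same upper quartile.

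The same upper quartile lowered the pupal and adult values and raised the larval ones, so all 741 genes higher as deposited stayed higher, and the 1338 genes lower there are a part of the 3339. Under all 5 scalings 459 genes (3.04%) stayed higher and 1207 (7.98%) lower. At the edge of the rule, 56 genes were higher with a ratio of at most 1.1-fold between the nearest libraries of the sides, and 69 missed separation by at most 1.1-fold. Among the 3339 lower genes as deposited these numbers were 463 and 459, so that this count has many genes close to the edge. The 463 are not among the 1338, whose lowest ratio as deposited was 1.45-fold. Genes near the edge at the same upper quartile, which limits the 1338, were not counted. Of the genes described here, 732 of the 741 and 1290 of the 1338 reached an RPKM of 1 in at least 1 of the 8 libraries.

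A fit over all genes gave the background of the comparison. With limma on log2(RPKM + 1), 654 of 14306 genes (4.57%) were higher in later larvae and 1722 (12.0%) lower at an adjusted p below 0.05. The fit weighs the difference of the sides against the spread among instars and among pupae and adults of both sexes, and says nothing of the spread among animals of 1 stage. With equal upper quartiles 787 genes passed as higher (5.50%) and 241 as lower (1.68%). With the median of ratios the counts were 806 (5.63%) and 220 (1.54%). Equal sums gave 535 (3.74%) and 6735 (47.1%), and equal reads at genes gave 579 (4.05%) and 5185 (36.2%). Between 535 and 806 genes were thus called higher, whereas the lower calls ranged from 220 to 6735. Higher calls numbered 379 without the 3rd instar, 363 without the 5th instar, 403 without the female pupa and 384 without the male pupa. Lower calls numbered 586, 579, 1089 and 300 without the 2nd, 3rd, 4th and 5th instar. They numbered 546 and 366 without the female and the male pupa, and 996 and 3012 without the female and the male adult. The separated genes were chosen on this same contrast and are given below as a description, without tests.

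The genes higher in later larvae were few and took a large share of the larval transcripts. The 741 genes, 4.90% of the table, held 75.3, 62.8, 44.7 and 55.6% of the summed RPKM in the 2nd to 5th instar. Against this, they held 11.8% in the female and 15.9% in the male pupa, while the female and male adults had 4.49% and 4.96%. The genes were chosen for higher values in each later larva, so the lack of overlap between the sides largely follows from the rule. Pupae kept a larger share than adults. A few genes carried much of these shares on both sides. The 10 most abundant of the 741 genes in each library made up 51.3, 36.2, 35.2 and 33.8% of the sum in the 2nd to 5th instar. They made up 9.34% in the female and 13.1% in the male pupa, and 2.54 and 2.86% in the female and male adults. The 459 genes higher under all 5 scalings held 66.9, 48.4, 29.2 and 39.4% in the 2nd to 5th instar. Their shares were 5.68 and 7.68% in female and male pupae and 1.62 and 2.12% in female and male adults.

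**Figure D2:**
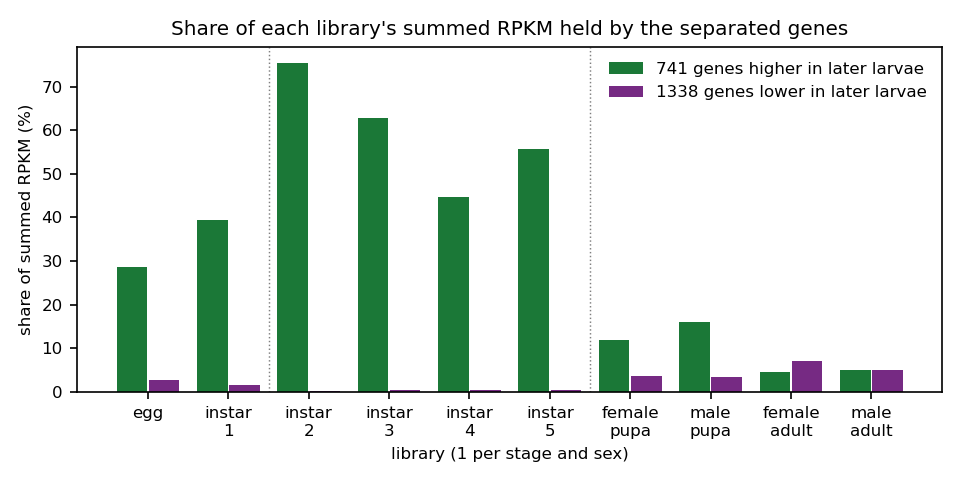
Share of each library's summed RPKM (vertical axis, %) held by the 741 genes higher (left bars) and the 1338 genes lower (right bars) in later larvae, in the 10 libraries from egg to adult; dotted lines bound the later larvae. The higher genes hold 44.7 to 75.3% of the sum in later larvae and 4.49 to 15.9% in pupae and adults.

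Summed RPKM was also taken without the separated genes, which by their choice lowers the larval sums. The genes in neither set summed to an RPKM of 600167, 769332, 951909 and 860071 in the 2nd to 5th instar. They summed to 880698 in the female and 910598 in the male pupa, while the female and male adults had 753690 and 1001890, so that the ranges overlap. Over the complete table the sums were 1734950 to 2446840 in later larvae and 851577 to 1127420 in pupae and adults, and did not overlap.

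Abundant genes were often larval ones. Taking the mean of the 2 side means, 53 of the 200 genes over an RPKM of 1000 were higher in later larvae (26.5%) and 1 was lower (0.50%). Between 100 and 1000 these were 137 (15.9%) and 44 (5.12%) of 859 genes. Of 5989 genes between 1 and 10, 226 (3.77%) were higher and 639 (10.7%) lower. This mean contains the high side, which places strongly larval genes in the upper bins. In the 2nd instar, 10 of the 10 most abundant genes were among the 741, and in the 3rd, 4th and 5th instar 7, 5 and 6 were. Among the 10 most abundant genes, 2 belonged to the 741 in the female pupa, 4 did in the male one and 0 in either adult.

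How far a gene stood apart was measured by the fold between the nearest libraries, the lowest value of the high side over the highest of the low side, with values below 3 reads set to 3 reads. Among the 741 genes higher in later larvae the median fold was 2.69, with 447 genes at 2-fold or more, 174 at 10-fold or more, 46 at 100-fold or more and 9 at 1000-fold or more. Among the 1338 lower genes the median was 1.99, with 651 genes at 2-fold or more, 25 at 10-fold or more, 1 at 100-fold or more and 0 at 1000-fold or more. A fold of 10 or more was thus reached by 23.5% of the higher genes and 1.87% of the lower ones. For 118 of the lower genes, and 0 of the higher ones, the reads were so few that the fold was below 1 after the limit of 3 reads was set. In 272 of the 741 genes each pupal and adult value was below an RPKM of 1, in 74 each had at most 3 reads, and in 15 each had 0 reads. An RPKM of 1000 or more in each later larva was found for 30 genes, against 0 of the lower genes with that level in each pupa and adult.

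**Figure D3:**
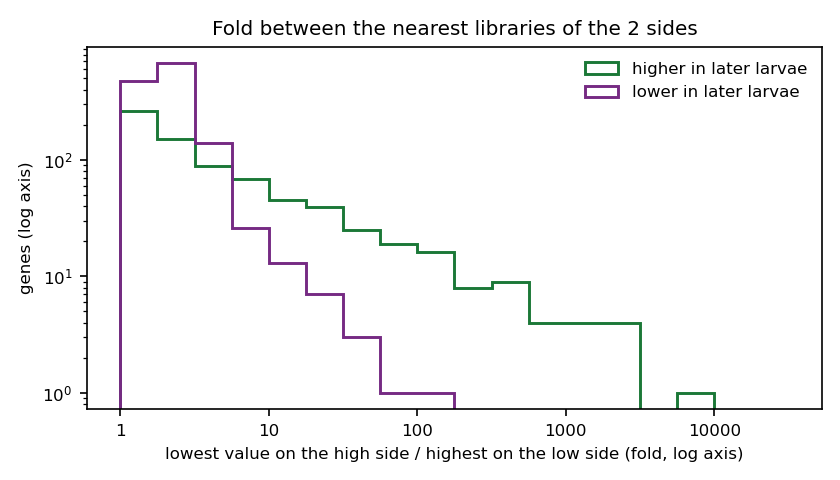
Number of separated genes (vertical log axis) by the fold between the nearest libraries of the sides (horizontal log axis), for the 741 genes higher and the 1338 genes lower in later larvae; values below 3 reads were set to 3 reads and the 118 folds below 1 are drawn at 1. The higher genes reach past 1000-fold (9 genes), whereas 1 lower gene passes 100-fold.

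The gene with the widest gap, the difference in log2(RPKM + 1) between the nearest libraries, was RR46_06415, with a recovered length of 681 bp. It had an RPKM of 61316, 32429, 8308 and 14927 in the 2nd to 5th instar, against 0.677 (15 reads) in the female and 0.835 (20 reads) in the male pupa. In adults it had 0 reads in the female and 0.658 (14 reads) in the male. The sides lay more than 1000-fold apart, and each pupal and adult value was below 1. The mean difference was 13.86 in log2(RPKM + 1), and between the nearest libraries, the 4th instar and the male pupa, the ratio was 9947-fold (exact 95% interval 6440 to 16285). Intervals here cover counting error only, and would be too narrow had paired ends each been counted.

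RR46_02064 (327 bp) had the next widest gap, with an RPKM of 50449, 31766, 6141 and 51900 in the 2nd to 5th instar. Against this, it had 4.79 in the female and 1.74 in the male pupa, while the female and male adults had 0.174 and 2.64. The ratio of the 4th instar to the female pupa was 1282-fold (975 to 1722). Like RR46_06415, this gene was lowest in the 4th instar among the later larvae, and lowest in the female adult among all 8 libraries.

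Genes near silence in pupae and adults were taken by a second rule, the highest larval minimum among genes with at most 3 reads in each pupa and adult. RR46_06414 (252 bp), whose number neighbours that of RR46_06415, had an RPKM of 91687, 6797, 755 and 4626 in the 2nd to 5th instar. It had 1 read each in the female pupa, male pupa and male adult and 0 reads in the female adult. The 2nd instar stood far above the other instars, and the ratio of the 4th instar to the male adult, taken on its 1 read, was 5947-fold with a wide interval (1067 to 234949). With the limit of 3 reads it was 1982-fold. RR46_03528 (780 bp) was less abundant, with an RPKM of 961, 686, 233 and 1060 in the 2nd to 5th instar. It had 2 reads in each pupa and 0 in each adult. The ratio of the 4th instar to the female pupa, taken on 2 reads, was 2961-fold (819 to 24457), and 1895-fold with the limit of 3 reads.

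**Figure D4:**
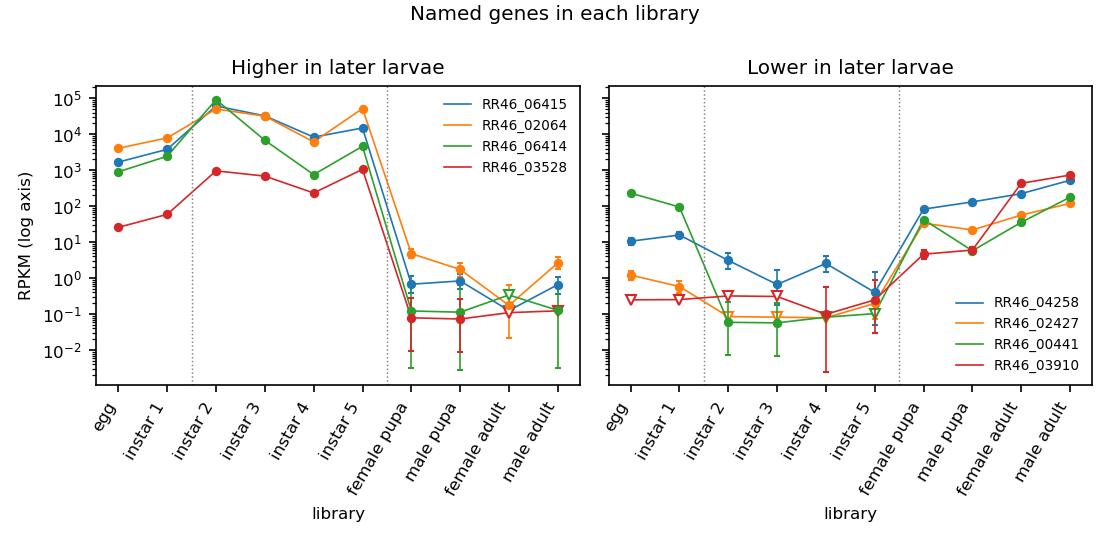
RPKM (log axis) of the 8 named genes in each of the 10 libraries, with exact 95% intervals for counting error; open triangles stand at the limit of 3 reads where a gene had 0 reads. In the left panel later larvae lie between 233 and 91687 and pupae and adults at 4.79 or below; in the right panel later larvae lie at 3.10 or below and pupae and adults at 4.63 or above.

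Within the larval period the 741 genes had a wide range. Its median over the 4 instars was 4.65-fold, against 3.30-fold for the 14306 genes that entered the fit, and 26.9% against 13.7% ranged 10-fold or more. The highest larval value fell in the 2nd instar for 197 genes, the 3rd for 229, the 4th for 84 and the 5th for 231. These were 26.6, 30.9, 11.3 and 31.2% of the 741, against 23.0, 22.7, 34.4 and 19.9% of the 14306. The lowest larval value fell in the 4th instar for 366 of the 741 (49.4%, against 17.6% of the 14306), and in the 2nd for 231 (31.2%, against 45.8%). A value in the 4th instar below those of the 3rd and the 5th was found in 62.9% of the 741 genes (26.6% of the 14306), and one at least 4-fold below, with the limit of 3 reads, in 20.9% (3.26%). The lowest value fell in the 4th instar for 413 of the 741 genes (55.7%, against 20.9%) once upper quartiles were equal. The 4th instar was 1 animal, so that its stage and its time within the moult cycle cannot be told apart from the animal. A steady rise over the 4 instars was seen in 43 of the 741 genes (982 of the 14306) and a steady fall in 33 (919 of the 14306).

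On the low side, the 741 genes did not share 1 library as their highest. The highest value among pupae and adults fell in the female pupa for 24.8% of the genes, in the male one for 23.8%, the female adult for 13.8% and the male adult for 37.7%. Over the 14306 genes these shares were 22.3, 17.5, 30.5 and 29.7%. With equal upper quartiles the female adult was the highest for 8.64% of the 741 (22.9% of the 14306) and the male adult for 43.0% (33.3%). Both pupae lay above both adults in 27.7% of the 741 genes (23.3% of the 14306), and in 28.9% (27.2%) with equal upper quartiles. Each male value lay above each female value in 17.5% of the 741 genes (14.2% of the 14306), and the reverse held in 5.40% (17.3%). These were 21.5% (16.9%) and 3.51% (12.4%) once upper quartiles were equal. No reads were found for 109 of the 741 genes in the female adult, and for 67 to 75 in the other 3 libraries.

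The 1338 genes lower in later larvae were of moderate abundance. They held 0.166, 0.357, 0.447 and 0.283% of summed RPKM in the 2nd to 5th instar. Against this, their share was 3.54% in the female and 3.34% in the male pupa, while the female and male adults had 7.01% and 5.01%. Their median RPKM was 0.856 to 1.99 in later larvae and 9.64 to 15.0 in pupae and adults. The median of their mean differences was -1.95 in log2(RPKM + 1), against -0.74 for all genes, while that of the 741 higher genes was 2.99. In 453 of the 1338 genes each larval value was below an RPKM of 1, in 240 each had at most 3 reads, and in 103 each had 0 reads.

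Among pupae and adults the female adult held the highest value for 616 of the 1338 lower genes, which is 46.0%, against 30.5% of the 14306. The upper quartile of this library was the highest of the 4, at 31.8 against 24.1 to 26.2. With equal upper quartiles the female adult was the highest for 471 of the lower genes (35.2%, against 22.9%). Each female value lay above each male value in 26.8% of the lower genes (17.3% of the 14306) and the reverse held in 15.8% (14.2%). These shares were nearly alike once upper quartiles were equal, at 19.3% (12.4%) and 18.4% (16.9%). Both pupae lay above both adults in 13.9% (23.3%) as deposited and in 20.0% (27.2%) with equal upper quartiles.

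RR46_04258 (213 bp) had the widest gap in log2(RPKM + 1) among the lower genes, at 4.35. It had an RPKM of 3.10 (18 reads), 0.666 (4 reads), 2.55 (16 reads) and 0.402 (2 reads) in the 2nd to 5th instar, against 82.8 in the female and 131 in the male pupa, while the female and male adults had 223 and 525. Adults lay above pupae, and the ratio of the female pupa to the 2nd instar was 26.7-fold (16.7 to 45.3). In RR46_02427 (1296 bp) the 5th instar had an RPKM of 0.198 (6 reads), and each of the 2nd to 4th instars had 0 reads. Against this, the gene had 33.7 in the female and 21.8 in the male pupa, while the female and male adults had 56.5 and 119.6. The ratio of the male pupa to the 5th instar was 110-fold (50.5 to 301), the largest fold among the lower genes. The gap of this gene was 4.25.

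Among lower genes near silence in later larvae, RR46_00441 (1245 bp) had 2 reads in the 2nd and in the 3rd instar and 0 reads in the 4th and 5th. Its RPKM was 42.6 in the female and 5.76 in the male pupa, while the female and male adults had 35.5 and 178, and the ratio of the male pupa to the 2nd instar, taken on 2 reads, was 97.6-fold (26.7 to 810). With the limit of 3 reads it was 55.9-fold. RR46_03910 (345 bp) had 0 reads in the 2nd and 3rd instar, 1 in the 4th and 2 in the 5th. Its RPKM was 4.63 in the female and 6.02 in the male pupa, while the female and male adults had 432 and 732. Adults were thus far above pupae in RR46_03910, whereas in RR46_00441 the male pupa was the lowest of the 4. The ratio of the female pupa to the 5th instar in RR46_03910, taken on 2 reads, was 18.7-fold (4.92 to 158), and 12.4-fold with the limit of 3 reads.

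The egg and the 1st instar, which the rule did not use, showed where the separated genes stood before the 2nd instar. Of the 741 genes higher in later larvae, 599 (80.8%, egg) and 648 (87.4%, 1st instar) lay above each pupa and adult, against 23.6% (egg) and 21.1% (1st instar) of all 15123 genes. Separated genes were chosen for low values in pupae and adults, which makes this easier to reach than for all genes. Fewer reached the lowest of the later larvae, 52.8% (egg) and 65.7% (1st instar). After the upper quartiles were made equal, 77.2% (egg) and 88.8% (1st instar) lay above pupae and adults, against 20.0% (egg) and 23.7% (1st instar) of all genes. At that scale 32.4% (egg) and 47.2% (1st instar) reached the later larvae. Of the 1338 lower genes, 1116 (83.4%, egg) and 973 (72.7%, 1st instar) lay above each later larva, against 49.95% (egg) and 41.3% (1st instar) of all genes. With equal upper quartiles these shares became 68.7% (egg) and 57.3% (1st instar), against 26.8% (egg) and 25.7% (1st instar) of all genes. Separated genes of both directions were thus mostly found above their low side in the egg and the 1st instar. The lower genes were chosen for low values in later larvae, which likewise makes this easier to reach than for all genes. In 103 of them each later larva had 0 reads, so that 1 read is enough.

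**Figure D5:**
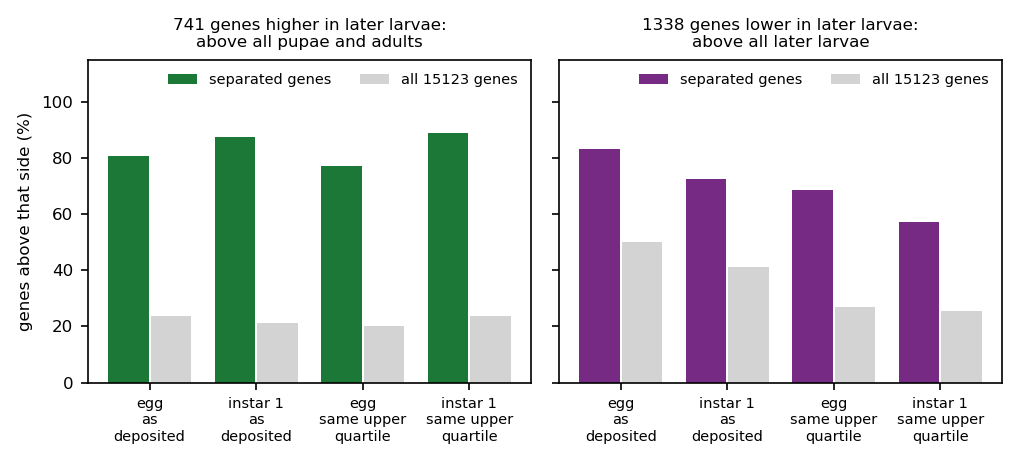
Share of genes (vertical axis, %) whose value in the egg or the 1st instar lay above each pupa and adult (left panel, the 741 genes higher in later larvae) or above each later larva (right panel, the 1338 lower genes), beside the same share of all 15123 genes in grey, as deposited and at the same upper quartile. In the left panel the separated genes stand at 77.2 to 88.8% and in the right panel at 57.3 to 83.4%.

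The named genes showed both kinds of early level. RR46_06415 stood at 1684 (egg) and 3803 (1st instar), below each later larva and far above each pupa and adult. In RR46_02064 the egg was at 4084, below each later larva, and the 1st instar at 7895, above the 4th instar. RR46_00441, near silent in later larvae, reached 231 (egg) and 94.96 (1st instar). RR46_03910 had 0 reads in both the egg and the 1st instar. Among separated genes with 30 reads or more in each of the egg and the 1st instar, the median ratio of egg to 1st instar was 0.687 for 671 genes higher in later larvae, of which 102 had a ratio above 1. It was 1.48 for 961 lower genes, of which 853 had a ratio above 1. Over all 11515 such genes the median was 1.17, and 7532 had a ratio above 1.

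The separated genes were also examined for neighbouring identifier numbers. Of the 741 genes higher in later larvae, 287 (38.7%) had a number next to that of another of the 741. Among the other 14382 genes of the table, 1062 (7.38%) had a number next to 1 of the 741. Of the 1338 lower genes 346 (25.9%) had a number next to that of another lower gene, against 2126 (15.4%) of the other 13785 genes. Runs of 3 or more consecutive numbers numbered 36 among higher genes, with 139 genes, and 35 among lower genes, with 110 genes. The longest run of higher genes had 8 members of 768 to 1485 bp, at an RPKM of 0.905 to 10308 in later larvae and 0 to 7.35 in pupae and adults. The longest run of lower genes had 5 members of 597 to 4377 bp, at 0 to 62.7 in later larvae and 0.0632 to 221 in pupae and adults. Whether numbers follow the order of genes on the scaffolds is not given in the sources used here, and reads shared between similar neighbouring genes were not tested. In length and reads, 6 of the higher and 0 of the lower genes were near-identical to another gene, against 33 of all 15123 genes. That rule asks for the same length, so it cannot show reads shared between similar genes of unlike length. The median recovered length was 1011 bp for higher genes, 909 bp for lower genes and 1002 bp for all genes.

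Comparisons with part of the pupae and adults showed which libraries limited the counts. As deposited, 1624 genes were higher and 6664 lower in later larvae when only pupae stood on the other side, and 1165 and 4669 when only adults did. With only females there were 1252 and 5555 genes, and with only males 934 and 4928. Fewer libraries separate more genes by construction. For the same number of libraries, males left fewer genes separated than females in both directions as deposited. These counts were not made at other scalings. Without the male adult 1098 genes were higher and 5058 lower, the largest counts among the 8 libraries left out in turn.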

How the data were processed

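Poly-A RNA of whole bodies was sequenced from both ends on an Illumina instrument. The authors deposited RPKM at the genes of their own *P. xuthus* assembly, in 1 table of 10 libraries and 15123 genes. The submitters' processing notes name TopHat 1.0.12 and 1.4.1 without their roles. The counting rule, strand and treatment of multiple hits are not given in the sources used here. RPKM does not correct for library composition, so that a few abundant genes can lower the rest. Whether they did so here was not tested.

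Groups were taken from the sample titles. Whole reads, gene lengths and library totals were solved from the ratios of RPKM values, and 100% of genes came out whole (relative tolerance 1e-10), and 0 of 500 did with totals wrong by 1 read. The absolute scale of totals and lengths is the smallest that the ratios allow (99.9% of lengths were multiples of 3), and a gene with few reads can have a true length that is a multiple of the one given. Reads were used for counting error, the limit of 3 reads and near-identical genes (same length, reads within 2% or 3 reads in each library, 100 reads or more in some library). No count model was fitted, because the unit is RPKM.

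Differences used log2(RPKM + 1), which understates changes of low genes. The upper quartile was taken over genes above 0 in at least 1 of the 8 libraries. limma 3.58.1 (R 4.3.3, trend and robust) was run on genes that reached an RPKM of 1 in 1 or more of the 8, with Benjamini-Hochberg adjustment. Depth, separation and figures used Python 3.11.15, scipy 1.17.1 and matplotlib 3.10.9. Exact 95% intervals are Clopper-Pearson and cover counting error only. Named genes were the 2 per direction with the largest gap in log2(RPKM + 1), and the 2 per direction with the highest minimum on the high side among genes with at most 3 reads in each library of the low side, leaving out near-identical genes. Alternatives were other scalings, filters, pseudocounts, gaps and leaving out libraries. The comparison and its rules were chosen with earlier results of these data known, and the scaling to the same reads at genes, and orders among libraries of a side at equal upper quartiles, were added after the data were seen.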

Additional observations from a re-analysis of the deposited data

Results flagged for a closer look

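Within each side of 4 libraries, 32 sets of values were examined for a library far from the other 3, and 4 stood out. The cut would flag about 1 set in 20 by chance among replicates with normal spread. These libraries were different stages or sexes, and sets from the named genes came from genes chosen for extreme values, so that rate does not apply here. The 10 most abundant genes held 51.3% of summed RPKM in the 2nd instar, against 37.6 to 39.8% in the other later larvae. RR46_06414 had an RPKM of 91687 in the 2nd instar, against 755 to 6797 in the other later larvae. The same gene had 0 reads in the female adult and 1 read in each of the other pupal and adult libraries, a difference of 1 read. RR46_02427 had an RPKM of 0.198 in the 5th instar and 0 reads in the other 3 later larvae.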

How the results depend on the processing

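Other settings gave 201 values for 26 results, of which 142 moved by no more than allowed (1.5-fold for counts) and 59 moved further. Counts and percentages have no sign, so a change of direction could be seen only in the median differences and the gaps, where there were 0. The balance of higher against lower counts did turn with the scaling, both for separated genes and for limma calls. The causes were not tested, except that wider gaps, stricter intervals and fewer libraries change counts by construction. Genes separated as deposited were 741 higher and 3339 lower in later larvae. They became 1287 and 1338 (same upper quartile), 459 and 6639 (same sum), 1386 and 1270 (median of ratios), 353 and 336 (gap of 1 or more) and 443 and 648 (gap of 1 with a pseudocount of 0.1). Lower genes were 5446 at the same reads at genes and 1634 where exact intervals did not overlap. With part of the pupae and adults, higher genes were 1624 (pupae), 1165 (adults) and 1252 (females), and lower genes 6664 (pupae) and 5555 (females). Leaving out 1 library gave 793 to 1098 higher and 3601 to 5058 lower genes, the last without the male adult. limma calls lower in later larvae, 1722 as deposited, were 241 (same upper quartile), 6735 (same sum), 220 (median of ratios) and 5185 (same reads at genes). Leaving out 1 library gave 300 to 3012 of them, and 363 to 815 higher calls against 654. The median difference of all genes, -0.74, became -0.19 (same upper quartile), -1.47 (same sum), -0.14 (median of ratios) and -1.24 (same reads at genes), and lay between -0.80 and -0.69 without 1 library. The gaps of the 8 named genes kept their sign under each setting tried. These genes were chosen for wide separation, and leaving out a library can only keep or widen a gap, so this is no independent check. No paired analysis was possible, because each stage and sex had 1 library and the sides held different stages. Depth limits genes with few reads: at 1 kb, 3 reads correspond to an RPKM of 0.102 to 0.128 in later larvae and 0.0853 to 0.0960 in pupae and adults.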
